A study of Mus musculus with 32 samples.

Results

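Interferon-stimulated genes were followed by name, as a set of 35 genes found by symbol among the 41388 genes counted in mouse sternal chondrocytes. They were chosen by symbol, with no threshold on a measured value but with earlier results of these data known. All 35 symbols were found. They span the layers of the antiviral state: ubiquitin-like conjugation by ISG15, RNA-binding IFIT proteins, RNA sensors, oligoadenylate synthetases, dynamin-like and guanylate-binding GTPases, and the transcription factors that switch the others on. The cells were taken from the sternum of mice of the strain labelled C57BL/6, as newborn pups in the methods, and used without expansion. RNA was sequenced in pairs of libraries, 32 libraries over 16 conditions. Virus-free wild-type cultures were left untreated or received the lactate dehydrogenase inhibitor FX11 at 40 µM, the inflammatory cytokine IL-1β at 10 ng/mL, or both, over 24 h. Cultures of the floxed genotypes (LDHA flox, NAMPT flox, NFKBIZ flox) were given adenovirus that carries eGFP alone, the GFP control, or Cre with eGFP, and then IL-1β at the same dose or none over 24 h. All 24 floxed libraries therefore carried adenovirus and floxed alleles and no wild-type library did, and Cre infection is both a virus and a deletion, since no wild-type culture received Cre.

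Type I and type III interferons bind receptors whose kinases phosphorylate STAT2, which joins IRF9 in the complex ISGF3. ISGF3 binds the interferon-stimulated response element, or ISRE, in the promoters of these genes, and IRF3 and IRF7 can bind similar elements directly when RNA or DNA sensors detect foreign or misplaced nucleic acid. Interferon-γ acts in part through IRF1 and is known above all for the guanylate-binding proteins. Adenovirus is a DNA virus, and IL-1β acts mainly through NF-κB, which can also raise some of these genes.

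The ISRE is the sequence feature that ties the set together, so the promoters of 5 members that the results return to are shown. Of the 35 members, 25 had a RefSeq promoter window of 250 bases before to 50 bases after the start, and 14 of these 25 (56%) held GAAANNGAAA on either strand, against 1079 of 27025 genes with a window (3.99%). Overlapping matches were counted as found. A match to the NF-κB (κB) motif, searched by name on both strands, lay in 5 of the 25 (20%), against 9.55% of all windows. The stretches below are from RefSeq (GRCm38.p6), written 5′ to 3′ on the strand of the gene, and the capitals mark the ISRE matches, which read TTTCNNTTTC where they lie on the opposite strand. They lie upstream of the gene models, at chr4:156200819-156200978 (minus strand) for Isg15, chr19:34640729-34640870 (plus) for Ifit1, chr19:34583369-34583528 (plus) for Ifit3, chr12:26456453-26456612 (minus) for Rsad2 and chr8:71537473-71537632 (minus) for Bst2.
Isg15: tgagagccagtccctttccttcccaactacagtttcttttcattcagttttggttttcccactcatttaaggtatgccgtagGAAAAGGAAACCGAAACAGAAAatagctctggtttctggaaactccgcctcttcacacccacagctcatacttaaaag
Ifit1: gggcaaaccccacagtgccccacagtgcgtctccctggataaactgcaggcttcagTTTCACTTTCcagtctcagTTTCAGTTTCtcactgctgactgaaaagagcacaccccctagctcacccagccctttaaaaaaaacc
Ifit3: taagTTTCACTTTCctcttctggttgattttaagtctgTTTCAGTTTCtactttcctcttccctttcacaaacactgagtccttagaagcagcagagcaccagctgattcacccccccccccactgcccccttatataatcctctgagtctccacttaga
Rsad2: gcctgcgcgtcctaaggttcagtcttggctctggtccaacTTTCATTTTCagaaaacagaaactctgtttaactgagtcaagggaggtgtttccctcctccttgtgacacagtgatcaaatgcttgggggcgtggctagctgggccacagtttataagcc
Bst2: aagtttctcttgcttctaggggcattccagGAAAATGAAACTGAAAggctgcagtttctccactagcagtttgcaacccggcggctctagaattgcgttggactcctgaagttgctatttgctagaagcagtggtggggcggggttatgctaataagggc

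The deposited counts summed to between 15830658 and 39959888 per library (median 25363482). Levels are CPM, the read count relative to the library's size after trimmed-mean (TMM) scaling over the 32 libraries, and pairs of values are replicates 1 and 2. The floxed genes fell where Cre was given. Ldha went from 937 and 876 CPM with GFP to 120 and 111 with Cre, Nampt from 60.1 and 54.6 to 6.77 and 6.80, and Nfkbiz from 16.0 and 16.9 to 9.55 and 8.18 (under IL-1β from 232 and 228 to 29.0 and 31.9). The 10 chondrocyte markers, Col2a1 and Acan among them, summed to between 12600 and 85600 CPM and none was at 0. The sample titles number the libraries in 2 series, here set 1 (12 libraries) and set 2 (20). Each wild-type, LDHA flox and NAMPT flox group has replicate 1 in set 1 and replicate 2 in set 2, while all NFKBIZ flox libraries are in set 2. A pair of wild-type libraries of set 2 went against their labels. Mmp3, a protease that IL-1β induces, stood at 0.789 CPM in the one labelled IL-1β and at 2032 in the one labelled FX11, against 9292 in the IL-1β library of set 1. Nothing in the labels says that replicates were separate cultures or animals, so p-values measure the spread between these libraries, which may be technical. In bulk RNA, fewer cells of a type and less RNA per cell cannot be told apart.

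Per kilobase of exonic length, the most abundant members in LDHA flox chondrocytes with GFP were Ifi27, a mitochondrial interferon-induced protein, at 29.8 CPM per kb, and Bst2 (tetherin), which holds budding virions at the membrane, at 17.0 CPM per kb. Stat2 followed at 3.95 and Parp12, an ADP-ribosyltransferase, at 3.60 CPM per kb. Over the 24 floxed libraries, between 16 and 30 of the 35 members exceeded 1 CPM. LDHA flox libraries held the most, with 23 and 24 members over 1 CPM with GFP and 29 and 29 with Cre. NFKBIZ flox libraries held the fewest, with 16 and 16 with GFP and 18 and 17 with Cre. A gene entered a test where it exceeded 1 CPM in at least 1 library fewer than the smaller group, and "rose" or "fell" below means an adjusted p of at most 0.05 in edgeR's quasi-likelihood test over all genes tested.

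**Figure D1:**
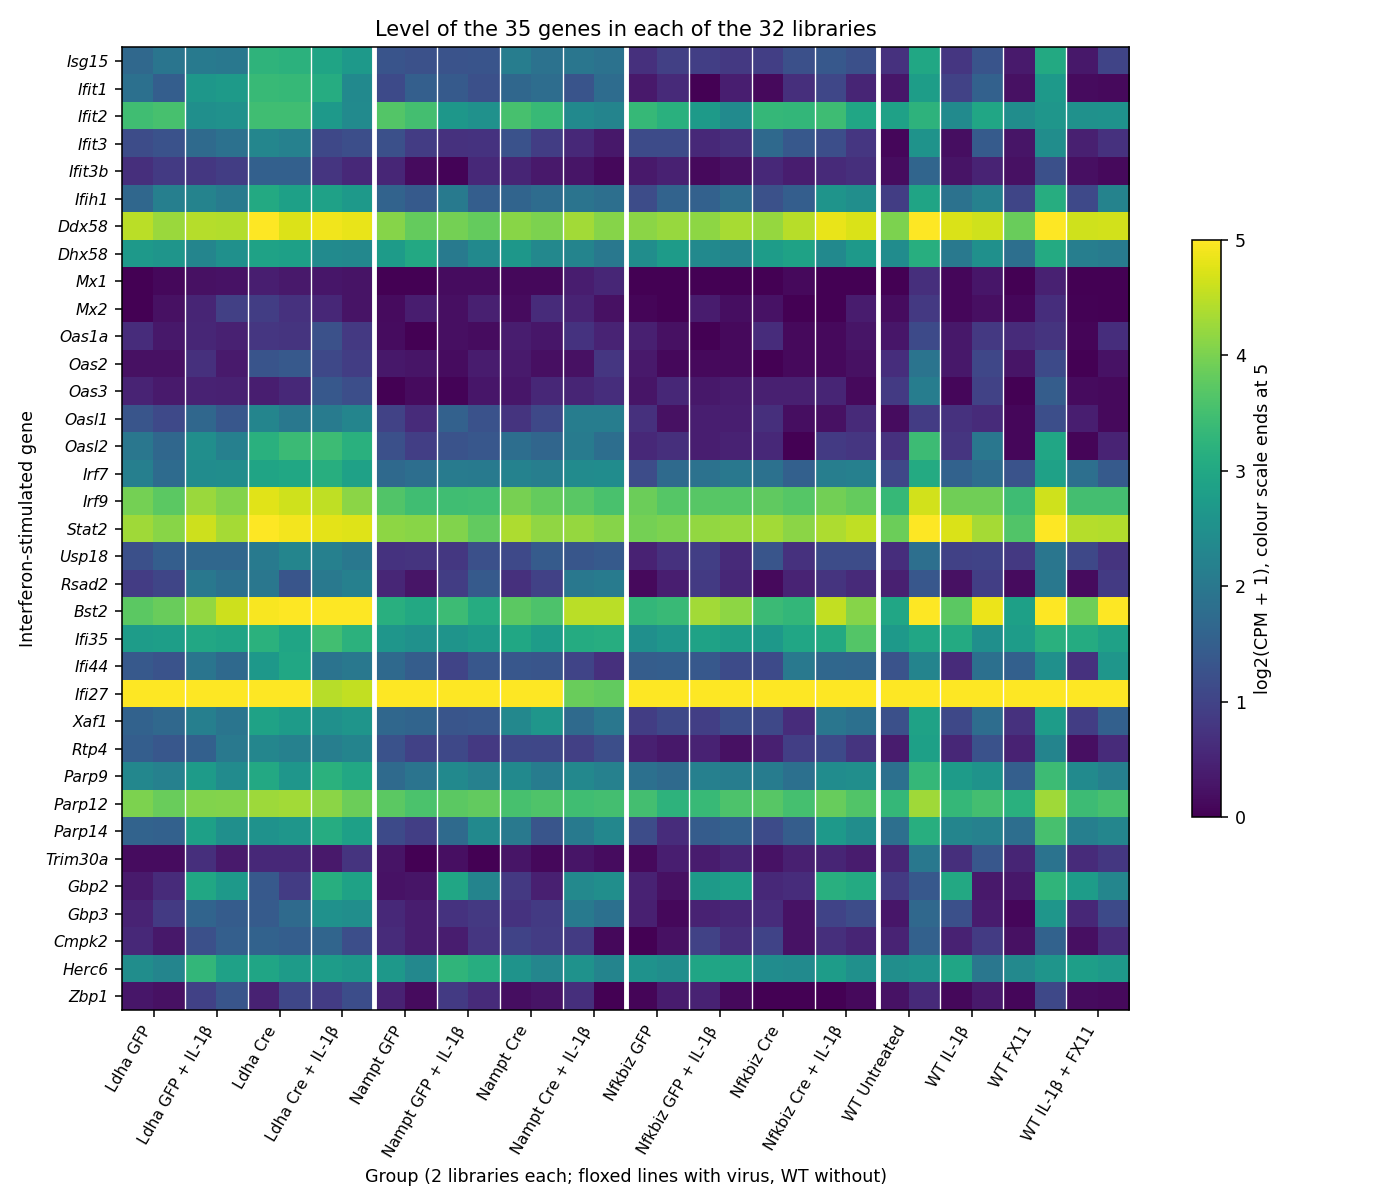
Level of each of the 35 interferon-stimulated genes (rows) in each of the 32 libraries (columns), as log2(CPM + 1), with a colour scale that ends at 5. Within each wild-type, LDHA flox and NAMPT flox pair set 1 is to the left of set 2, and the wild-type untreated library of set 2 has 31 members over 1 CPM against 15 in set 1, and the LDHA flox Cre libraries have 29 each against 23 and 24 with GFP.

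In LDHA flox chondrocytes without IL-1β, 19 of the 32 members tested rose after Cre and 0 fell, where 3.36% of all genes tested rose. The median difference over the members was 1.249 on the log2 scale, against -0.018 over all genes tested. Of the 32, 8 were under 1 CPM in each GFP library and had to be higher with Cre or IL-1β to be tested. Of these 8, 4 were called (Oas2, Gbp2, Gbp3 and Cmpk2), and 15 of the other 24 were called. Mx1, Mx2 and Trim30a were too low to test. Leaving out LDHA flox Cre replicate 1 reduced the 19 to 9, and leaving out GFP replicate 1 reduced them to 12, in fits with fewer samples.

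Isg15, the ubiquitin-like modifier that gives the family its emblem, had 2.22 and 2.85 CPM with GFP and 8.50 and 8.21 with Cre, so the groups did not overlap and the difference was 1.72 on the log2 scale (SE 0.20, adjusted p = 0.00117). Usp18, the protease that removes ISG15 and damps the interferon receptor, went from 1.34 and 1.83 CPM to 3.18 and 3.83 (1.14, SE 0.27, adjusted p = 0.0388). Herc6, the mouse ligase that attaches ISG15, had 4.45 and 3.86 CPM against 6.66 and 5.68, which did not pass the test. Thus the modifier and its protease rose, and the ligase was higher in each Cre library without passing.

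Of the RNA-binding IFIT proteins, Ifit1, which recognises RNA lacking a cap methyl group, had 2.57 and 1.83 CPM with GFP and 9.29 and 9.20 with Cre (log2 difference 2.05, SE 0.27, adjusted p = 0.00272). Ifit3, its binding partner, had 1.23 and 1.38 against 3.93 and 3.56 CPM (1.52, SE 0.27, adjusted p = 0.0118). Both Cre libraries lay far above both GFP libraries for these genes, whose promoters each hold 2 ISRE matches above. The near copy Ifit3b had 0.585 and 0.814 against 1.88 and 1.90 CPM (adjusted p = 0.0692), and reads shared between it and Ifit3 make both uncertain. Ifit2 stood apart from the family, with 10.1 and 10.6 CPM with GFP and 10.0 and 10.1 with Cre, and its log2 difference was -0.05.

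The RNA sensors differed among themselves. Ifih1 (MDA5), which binds long double-stranded RNA, had 2.19 and 3.46 CPM with GFP and 7.23 and 6.18 with Cre (1.26, SE 0.24, adjusted p = 0.0156). Ddx58 (RIG-I), which binds RNA ends with a triphosphate, rose by 0.52 (SE 0.10, adjusted p = 0.0205) from 21.2 and 18.1 CPM to 30.9 and 25.7. Dhx58 (LGP2), a regulator of both, had 5.53 and 5.12 against 6.32 and 6.18 CPM and did not pass. Among the oligoadenylate synthetases, which make the second messenger that activates RNase L, Oas2 had 0.175 and 0.163 CPM against 1.45 and 1.62 (3.14, SE 0.53, adjusted p = 0.00907). Oasl2, a family member with ubiquitin-like domains, had 2.95 and 2.20 CPM against 8.08 and 9.65 (1.76, SE 0.22, adjusted p = 0.00172), and Oasl1 rose by 1.37 (SE 0.29, adjusted p = 0.0242). Oas1a and Oas3 were under 1 CPM in each GFP and Cre library without IL-1β and did not pass.

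All 3 transcription factors of the set rose. Irf7, the inducible amplifier of the interferon response, had 3.45 and 2.36 CPM with GFP and 6.6 and 6.90 with Cre (1.2, SE 0.21, adjusted p = 0.012). Irf9, the DNA-binding part of ISGF3, had 14.6 and 12.4 against 26.2 and 23.8 CPM (0.89, SE 0.14, adjusted p = 0.00578), and Stat2, its partner, had 18.5 and 16.2 against 33.4 and 28.9 (0.83, SE 0.11, adjusted p = 0.00273). All 3 factors changed less than Isg15 or Ifit1, and Stat2 and Irf9 were already among the more abundant members. Irf7 overlaps Phrf1 on the opposite strand in the annotation, as Dhx58, Oasl1, Ifi35, Parp9, Trim30a and Gbp2 overlap other genes, and the sources used here do not state whether counting used strand, without which reads of the overlap cannot be told apart. Irf9 overlaps Rnf31, and Gbp3 overlaps Gbp2b, on the same strand, so their values are uncertain with or without strand.

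Among the effectors, Bst2 had 12.4 and 13.6 CPM with GFP and 29.8 and 39.4 with Cre (1.41, SE 0.19, adjusted p = 0.00314). Ifi44, a cytoplasmic antiviral protein, had 1.64 and 1.42 against 5.36 and 6.86 CPM (1.98, SE 0.25, adjusted p = 0.00204), and Xaf1, an antagonist of the caspase inhibitor XIAP, had 1.99 and 2.24 against 6.41 and 5.68 (1.52, SE 0.21, adjusted p = 0.00319). The groups did not overlap for any of these. Cmpk2, a mitochondrial nucleotide kinase, Parp14, an ADP-ribosyltransferase, and the guanylate-binding proteins Gbp3 and Gbp2 rose too, by 2.29, 1.32, 1.72 and 1.67 on the log2 scale. Gbp2 was weakest in support, with 0.292 and 0.529 CPM against 1.63 and 0.857 (adjusted p = 0.0448), and it stayed called in 1 of 8 fits that left out a library. Isg15, Ifit1, Oasl2, Stat2 and Bst2 stayed called in 8 of 8, and Ifit3 and Irf7 in 5 of 8.

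Rsad2 (viperin), which makes a chain-terminating nucleotide, had 0.848 and 1.06 CPM with GFP and 2.96 and 1.49 with Cre (1.24, SE 0.36, adjusted p = 0.0871). Zbp1, a sensor of Z-form nucleic acid, had 0.234 and 0.163 against 0.393 and 1.08 CPM (1.79, SE 0.67, adjusted p = 0.184). Both were higher in each Cre library and neither passed the test at these low counts. Taking the 27 members that averaged over 1 CPM across the 4 GFP and Cre libraries without IL-1β, 26 were higher in each Cre library than in each GFP library and 1 was lower, where 20.8% of all such genes were higher and 23.7% lower. Of the 27, Ifit3b, Gbp3 and Cmpk2 were under 1 CPM in each GFP library. They entered this count through the Cre libraries and could not come out lower. The 9 of 16 members with a promoter window that rose and held the ISRE (56.2%) stand beside 5 of 9 of the others (55.6%).

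**Figure D2:**
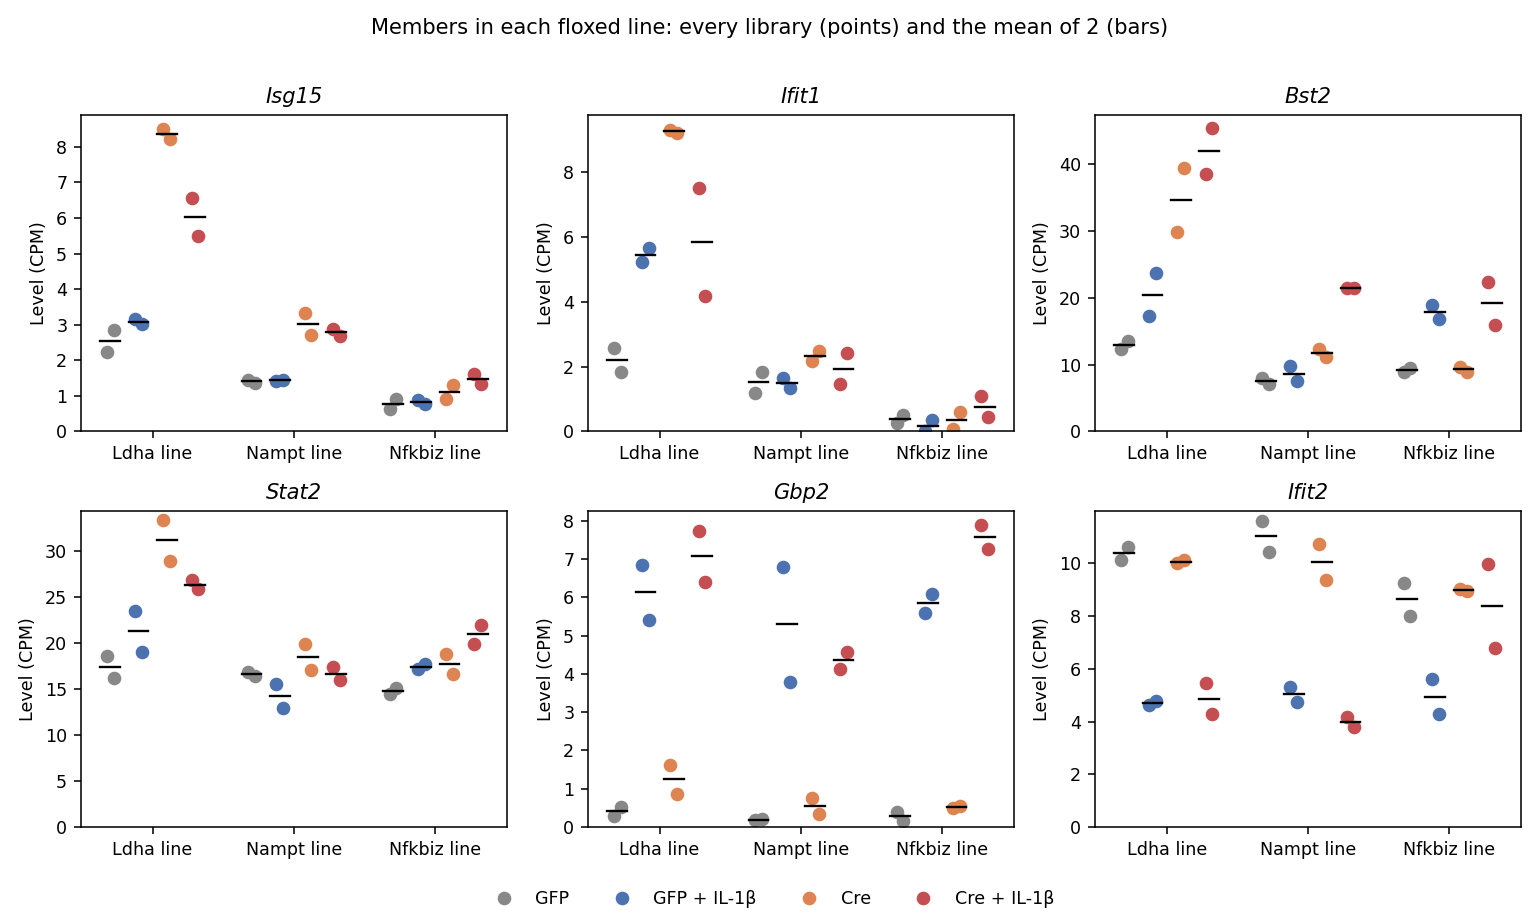
CPM of Isg15, Ifit1, Bst2, Stat2, Gbp2 and Ifit2 in every library, with 1 point per library and a bar at the mean of 2, by line and treatment (grey, GFP; blue, GFP + IL-1β; orange, Cre; red, Cre + IL-1β). In LDHA flox chondrocytes the Cre points of Isg15, Ifit1, Bst2 and Stat2 lie above the GFP points, those of Ifit2 do not differ beyond their spread, and Gbp2 is under 2 CPM in every library of the floxed lines without IL-1β.

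Other cell types and the cartilage genes moved in part with the same contrast. The 10 chondrocyte markers summed to 65500 and 65200 CPM with GFP and to 47200 and 46500 with Cre in the LDHA flox line. Of 12 macrophage and leukocyte markers 7 could be tested and 0 were called, their sum was 21.8 and 22.1 CPM with GFP and 20.5 and 19.2 with Cre, and 2 of them were at 0 in both Cre libraries. Of 4 endothelial markers 3 were tested and 1 rose, where 3.36% of all genes rose, with a sum of 2.90 and 2.89 CPM against 10.1 and 10.2. The part of these cells in the changes of the interferon-stimulated genes was not tested.

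In NAMPT flox chondrocytes without IL-1β, 3 of the 27 members tested rose after Cre and 0 fell, where 8.32% of all genes rose, and the median was 0.364. Bst2 rose from 7.94 and 7.11 to 12.3 and 11.1 CPM (0.63, SE 0.13, adjusted p = 0.00958). Isg15 rose from 1.46 and 1.37 to 3.33 and 2.70 CPM (1.09, SE 0.27, adjusted p = 0.0197), and Xaf1 from 2.18 and 2.05 to 4.07 and 5.14 (1.11, SE 0.26, adjusted p = 0.0147). Oasl2, at 1.33 and 0.895 against 2.51 and 2.12 CPM, missed the threshold (adjusted p = 0.0539). Ifit1 had 1.18 and 1.84 against 2.17 and 2.47 CPM and Stat2 16.8 and 16.4 against 19.9 and 17.1, and neither passed. With the library set as a block, which pairs these libraries, 8 members were called in place of 3, and leaving out NAMPT flox GFP replicate 1, GFP replicate 2 or Cre replicate 1 left 1.

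In NFKBIZ flox chondrocytes without IL-1β, 0 of the 23 members tested were called after Cre by edgeR, and 0 had an unadjusted p under 0.05, where 0.260% of all genes were called in either direction. The median was 0.258. Isg15 had 0.620 and 0.923 CPM with GFP and 0.905 and 1.32 with Cre, so the groups overlapped. Stat2, the member with the smallest p, had 14.4 and 15.1 against 18.8 and 16.6 CPM (0.26, SE 0.13), and Bst2 had 8.94 and 9.48 against 9.68 and 8.96 (0.01, SE 0.18). Of the 16 members that averaged over 1 CPM across the 4 GFP and Cre libraries, 5 were higher in each Cre library than in each GFP library and 1 was lower, where 18.1% and 16.4% of all such genes were. Ifit1 reached at most 0.591 CPM without IL-1β, and Oasl2 was at 0.498 and 0 CPM with Cre.

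The Cre effects were then set against each other in a fit of the 24 floxed libraries. In NFKBIZ flox against LDHA flox chondrocytes, 5 of the members tested had a lower Cre effect and 0 a higher one, where 1.03% of all genes had a lower one, and the median over the members was -0.823. These were Bst2 (-1.40, SE 0.24, adjusted p = 0.00208), Irf9 (-0.96, SE 0.15, adjusted p = 0.000917), Stat2 (-0.59, SE 0.14, adjusted p = 0.0268), Xaf1 (-1.80, SE 0.43, adjusted p = 0.0271) and Oasl2 (-2.89, SE 0.68, adjusted p = 0.0255). With each of the 24 libraries left out in turn, Bst2 and Irf9 stayed called in 24 fits and Stat2 and Oasl2 in 18, and the difference of Oasl2, which had 0 counts in an NFKBIZ flox Cre library, ranged from -8.63 to -1.91 and depends on the prior count of the fit. For Isg15 the difference was -1.22 (SE 0.39, adjusted p = 0.136), so a smaller rise in NFKBIZ flox chondrocytes was not shown for it. In LDHA flox against NAMPT flox chondrocytes, 2 of 32 members had a higher Cre effect and 0 a lower one, where 0.0418% of all genes had a higher one. These were Ifi44 (2.41, SE 0.47, adjusted p = 0.0471), which went from 2.28 and 1.79 to 1.56 and 1.51 CPM in the NAMPT flox line, and Ifi27 (0.66, SE 0.13, adjusted p = 0.042), and both calls were lost when the library set was left out of the fit. In the same fits without 1 library, Ifi44 stayed called in 4 fits and Ifi27 in 7. Between NFKBIZ flox and NAMPT flox chondrocytes 0 members were called, 6 had an unadjusted p under 0.05, and 5.03% of all genes were called in either direction, while DESeq2 and voom each called 1.

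**Figure D3:**
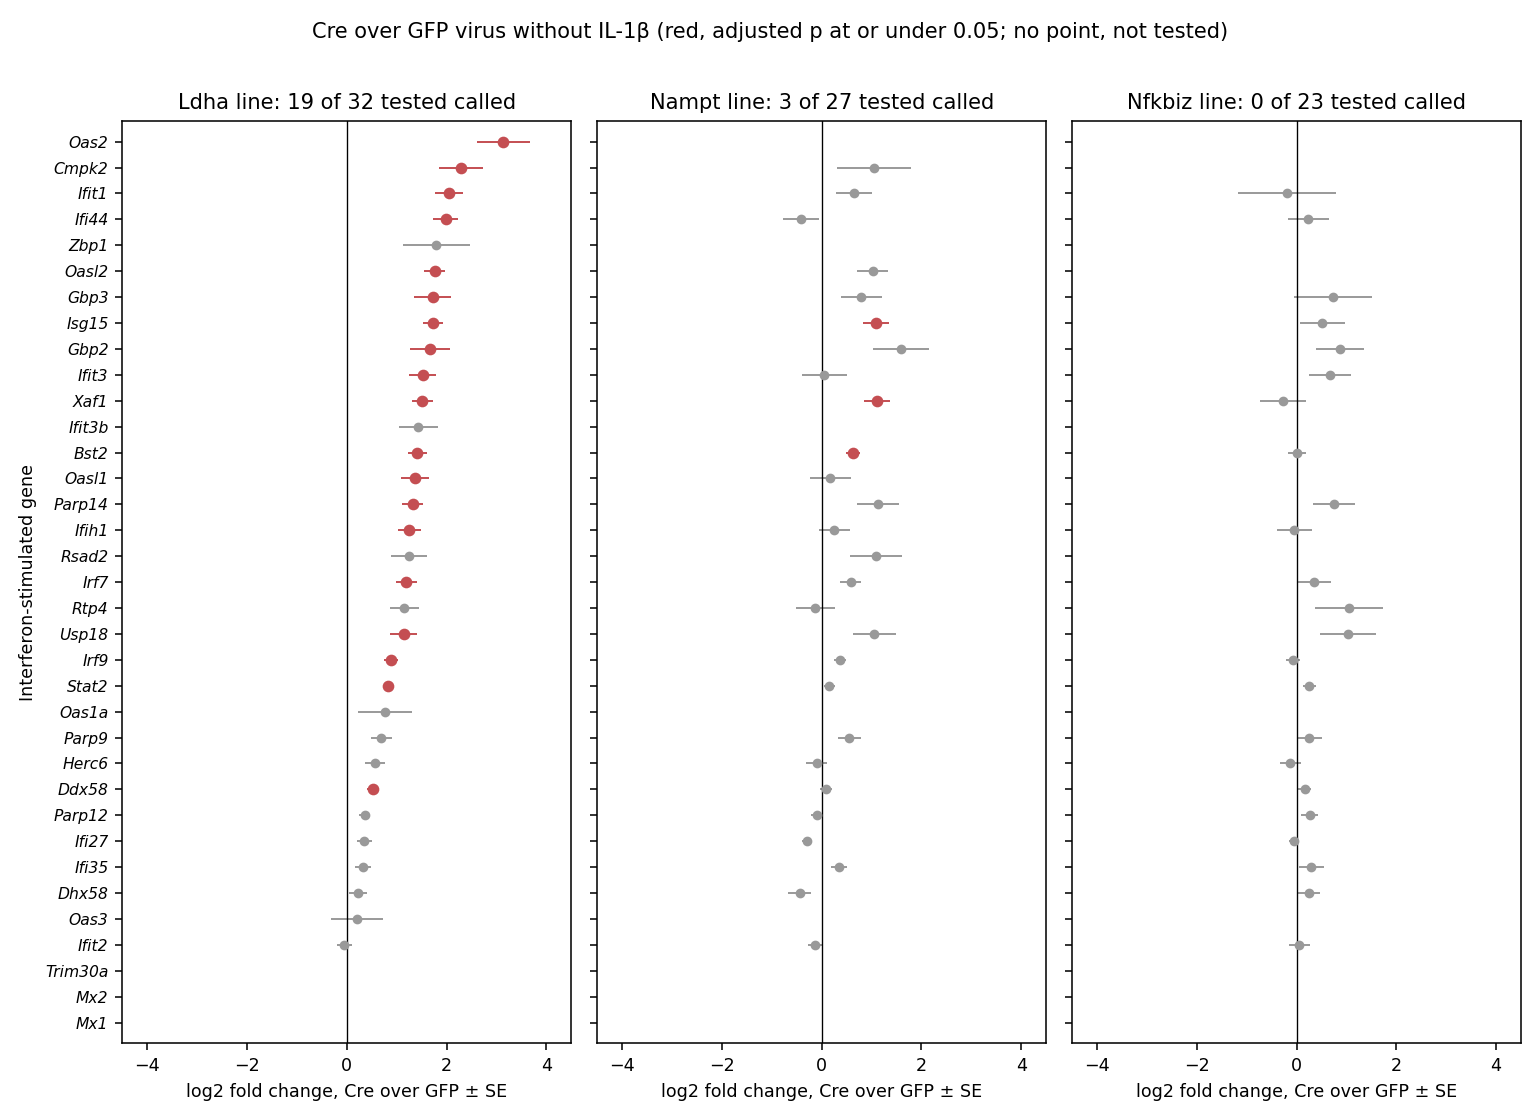
Log2 difference of Cre against GFP without IL-1β for each member tested, in the LDHA flox, NAMPT flox and NFKBIZ flox lines, with bars of 1 standard error from edgeR's fit within each line, and called members in red. Most members lie to the right of 0 in the LDHA flox line (median 1.249 over 32), fewer and nearer to 0 in the NAMPT flox line (median 0.364 over 27), and around 0.258 in the NFKBIZ flox line (23).

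Over the 3 lines together, 14 of 23 members tested rose after Cre without IL-1β and 0 fell, where 9.54% of all genes rose, and the median was 0.669 against -0.008 over all genes tested. Isg15 ranged from 0.620 to 2.85 CPM (median 1.41) in 6 GFP libraries and from 0.905 to 8.50 (median 3.02) in 6 Cre libraries (1.26, SE 0.20, adjusted p = 0.000746). Parp14 ranged from 0.545 to 2.02 CPM (median 1.21) and from 1.22 to 5.14 (median 2.42) (1.13, SE 0.21, adjusted p = 0.00261), and Usp18 from 0.398 to 1.83 (median 0.675) and from 0.636 to 3.83 (median 1.60) (1.09, SE 0.21, adjusted p = 0.00299). The ranges of the GFP and Cre libraries overlapped for all 3 genes. Usp18, with a GFP median under 1 CPM, met the filter of this test through the Cre libraries. The count of 14 was lower without LDHA flox libraries: without LDHA flox Cre replicate 1 there were 6 members, without GFP replicate 1 there were 7, without replicate 2 of either group 9, and with set 2 alone 0.

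With IL-1β in the GFP cultures of the 3 lines, 7 of 24 members rose and 3 fell, where 27.9% of all genes rose and 28.3% fell, and the median was 0.213 against -0.008. Gbp2 ranged from 0.168 to 0.529 CPM (median 0.252) in 6 libraries without IL-1β and from 3.79 to 6.84 (median 5.85) with it, with no overlap (4.35, SE 0.24, adjusted p = 1.09e-10). Being under 1 CPM in each library without IL-1β, Gbp2 entered this test through those with IL-1β and could not fall. Herc6 ranged from 3.86 to 5.35 CPM (median 4.47) and from 6.25 to 8.96 (median 7.14), and Parp14 from 0.545 to 2.02 (median 1.21) and from 1.73 to 6.20 (median 3.27), with log2 differences of 0.76 (SE 0.11, adjusted p = 1.2e-05) and 1.43 (SE 0.21, adjusted p = 2.56e-05). Bst2, Irf7, Parp9 and Oasl1 rose as well, by 0.65, 0.61, 0.53 and 0.65. Parp9, the partner of the ubiquitin ligase Dtx3l, overlaps that gene in the annotation.

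The members that fell with IL-1β were Ifit2, Ifi27 and Dhx58. Ifit2 ranged from 8.01 to 11.6 CPM (median 10.3) without IL-1β and from 4.28 to 5.60 (median 4.76) with it, a fall by 1.00 on the log2 scale with no overlap (SE 0.10, adjusted p = 3.48e-07). Ifi27 ranged from 38.5 to 58.5 CPM (median 47.9) and from 31.3 to 46.4 (median 39.7) (-0.27, SE 0.06, adjusted p = 0.0006), and Dhx58 from 4.47 to 7.05 (median 5.60) and from 3.16 to 4.67 (median 4.04) (-0.46, SE 0.12, adjusted p = 0.00522). Ifit1, a relative of Ifit2, was not called in the NAMPT flox or NFKBIZ flox line with IL-1β. It rose in the LDHA flox line (1.31, SE 0.27, adjusted p = 0.0058), from 2.57 and 1.83 to 5.23 and 5.64 CPM, and Ifit2 fell by 1.12 (SE 0.16, adjusted p = 0.000542), from 10.1 and 10.6 to 4.62 and 4.76 CPM.

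Line by line, 12 of 32 members rose with IL-1β in LDHA flox GFP cultures and 1 fell (14.5% of all genes rose and 13.3% fell), with a median of 0.547. In NAMPT flox GFP cultures 6 of 27 rose and 3 fell (17.7% and 17.3%), and in NFKBIZ flox GFP cultures 2 of 23 rose and 1 fell (15.2% and 11.7%). Gbp2 rose and Ifit2 fell in each line. Of the 32, 27 and 23 members tested, 8, 6 and 6 were under 1 CPM in each GFP library of their line. These had to be higher in another group of the line to be tested. Gbp2 was among them in each line, Zbp1 in the LDHA flox line and Rsad2 in the NAMPT flox line. Zbp1 rose in the LDHA flox line, from 0.234 and 0.163 to 0.966 and 1.48 CPM (2.58, SE 0.64, adjusted p = 0.014), and Rsad2 rose in the LDHA flox line from 0.848 and 1.06 to 3.00 and 2.59 CPM (1.59, SE 0.36, adjusted p = 0.00863) and in the NAMPT flox line from 0.461 and 0.211 to 0.870 and 1.69 (1.82, SE 0.52, adjusted p = 0.0192). Leaving out a library of the contrast lowered the count of called members from 13 to 8 in the LDHA flox line (GFP replicate 1 or 2, or GFP + IL-1β replicate 1) and from 9 to between 3 and 5 in the NAMPT flox line (GFP replicate 2, or GFP + IL-1β replicate 1 or 2).

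After Cre, 8 of 27 members rose with IL-1β over the 3 lines and 4 fell, where 23.9% of all genes rose and 23.6% fell, and the median was 0.122. Gbp2 rose again, from between 0.348 and 1.63 CPM (median 0.656) to between 4.14 and 7.88 (median 6.84) (3.07, SE 0.23, adjusted p = 1.53e-06). Gbp3, which rose by 1.62 (SE 0.23, adjusted p = 0.000139), went from between 0.182 and 2.30 CPM (median 0.736) to between 1.02 and 4.78 (median 2.90). With medians under 1 CPM without IL-1β, Gbp2 and Gbp3 met the filter of this test through the libraries with IL-1β. Ifi27 fell by 1.02 (SE 0.17, adjusted p = 0.000389), from between 33.7 and 61.2 CPM (median 51.8) to between 13.0 and 46.6 (median 21.6). Ifit3 fell by 1.35 (SE 0.23, adjusted p = 0.000612), from between 0.888 and 3.93 CPM (median 1.93) to between 0.245 and 1.31 (median 0.930).

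**Figure D4:**
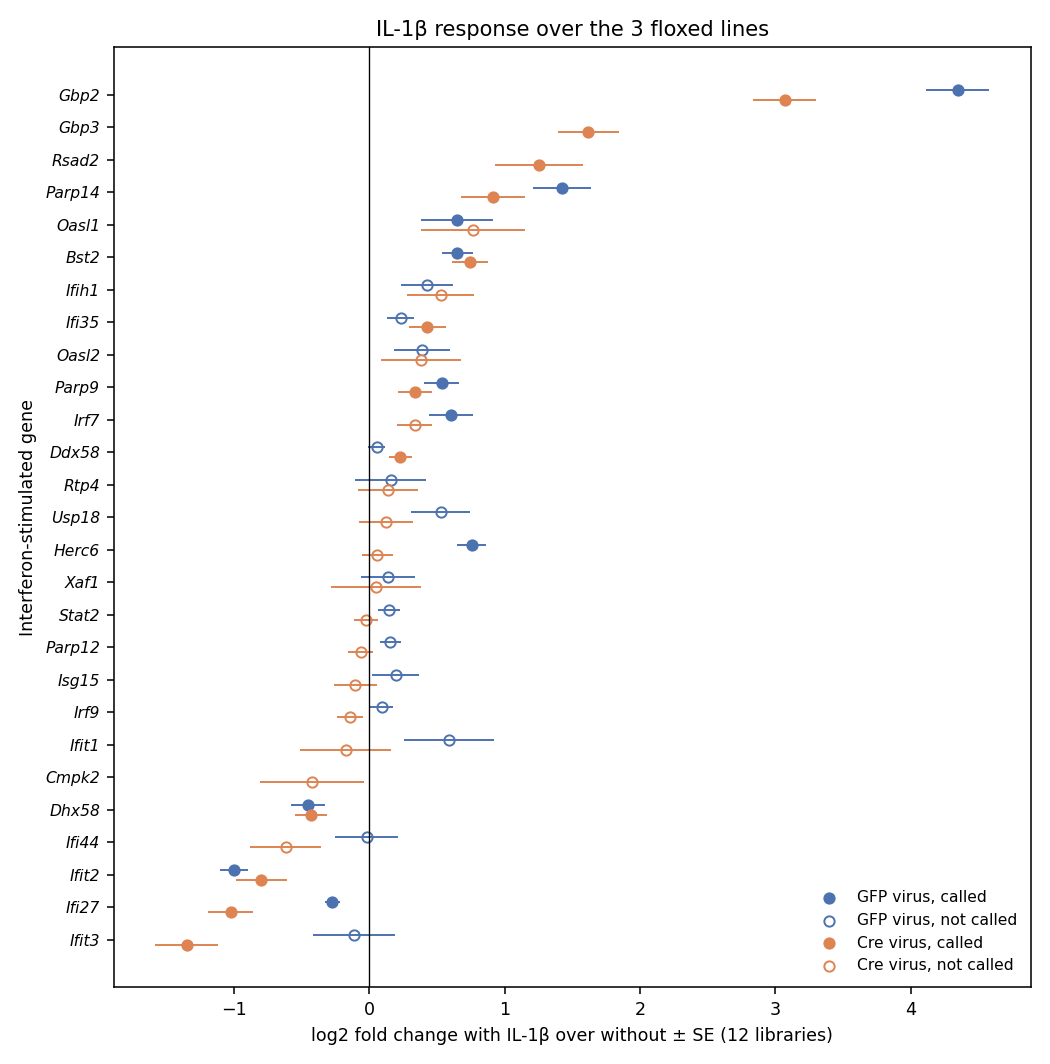
Log2 difference with IL-1β against without for each member tested, over the 3 floxed lines, in GFP cultures and in Cre cultures, with bars of 1 standard error from edgeR's fits (filled, called; open, not called). Gbp2 lies farthest to the right in both (4.35 and 3.07), and Ifit2 and Ifi27 lie left of 0 in both.

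The IL-1β responses with Cre and with GFP were compared as an interaction in each line. In the LDHA flox line 5 of 32 members had a lower response with Cre and 0 a higher one, where 5.52% of all genes had a lower one, and the median was -0.568. Ifit3 had the smallest adjusted p. It rose with IL-1β in GFP cultures, from 1.23 and 1.38 to 2.31 and 2.64 CPM, and was at 3.93 and 3.56 with Cre and 1.13 and 1.31 with Cre and IL-1β, an interaction of -2.50 (SE 0.39, adjusted p = 0.00284). Ifit1, Ifi44, Ifi27 and Cmpk2 had interactions of -1.90, -1.78, -1.20 and -2.12 (adjusted p between 0.00854 and 0.0485). With the library set as a block 11 members were called. In the NAMPT flox line Bst2 had a higher response with Cre (0.67, SE 0.19, adjusted p = 0.0277) and Ifi27 a lower one (-0.99, SE 0.15, adjusted p = 0.000917), so 1 of 27 was higher and 1 lower (12.0% and 9.94% of all genes), or 4 members called with the block. Leaving out either GFP library or either Cre + IL-1β library left 1 of them. In the NFKBIZ flox line 0 of 23 were called by edgeR, 3 had an unadjusted p under 0.05, and 5.18% of all genes were called in either direction.

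Under IL-1β, Cre against GFP over the 3 lines gave 13 of 26 members higher and 2 lower, where 19.8% of all genes were higher and 17.9% lower, with a median of 0.528. Gbp3 ranged from 0.396 to 2.07 CPM (median 0.727) with GFP and from 1.02 to 4.78 (median 2.90) with Cre (1.56, SE 0.18, adjusted p = 0.000102). With a GFP median under 1 CPM, it met the filter of this test through the Cre libraries. Oasl2 ranged from 0.347 to 4.51 (median 1.49) and from 0.731 to 9.82 (median 2.87) (1.08, SE 0.14, adjusted p = 0.000215), and Isg15 from 0.778 to 3.17 (median 1.43) and from 1.33 to 6.57 (median 2.78) (0.95, SE 0.13, adjusted p = 0.000374). Those that fell were Ifi27 (-0.71, SE 0.17, adjusted p = 0.00769) and Herc6 (-0.54, SE 0.13, adjusted p = 0.00867). Herc6 had between 6.25 and 8.96 CPM with GFP and between 3.79 and 5.81 with Cre, without overlap.

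By line under IL-1β, 13 of 32 members rose after Cre in LDHA flox chondrocytes and 2 fell (16.8% and 17.0% of all genes), 9 of 27 rose and 2 fell in NAMPT flox (24.9% and 23.4%), and 5 of 23 rose and 0 fell in NFKBIZ flox chondrocytes (8.14% rose). Of the 32 in the LDHA flox line, 4 were under 1 CPM in each GFP + IL-1β library and had to be higher in another group to be tested, and 1 of these was called. In the NAMPT flox line Gbp3, among those that rose, had 0.672 and 0.783 CPM with GFP + IL-1β. It was tested there through the Cre + IL-1β libraries, at 3.20 and 2.61 CPM. In the LDHA flox line Bst2 had 17.2 and 23.7 CPM with GFP and 38.5 and 45.5 with Cre (1.08, SE 0.19, adjusted p = 0.00168), and in the NAMPT flox line 9.76 and 7.59 against 21.5 and 21.4 (1.30, SE 0.13, adjusted p = 1.58e-05). In the NFKBIZ flox line Bst2 had 18.9 and 16.8 against 22.4 and 16.0 CPM, and the 5 that rose were Ddx58, Ifih1, Parp14, Xaf1 and Ifit2. Parp14 went from 1.73 and 1.95 to 5.42 and 4.47 CPM there (1.41, SE 0.35, adjusted p = 0.0148), and Ifit2 from 5.60 and 4.28 to 9.95 and 6.79 (0.76, SE 0.22, adjusted p = 0.0332). Ifi27 fell in the LDHA flox line, from 35.2 and 44.2 to 21 and 22.2 CPM, and in the NAMPT flox line, from 31.3 and 33.2 to 13.4 and 13.0, while it had 46.4 and 46.1 against 46.6 and 40.9 in the NFKBIZ flox line. Single libraries moved the called totals of 15, 11 and 5: they were between 5 and 8 without any 1 of the 4 LDHA flox IL-1β libraries, between 4 and 7 without any 1 of the 4 NAMPT flox ones, and between 0 and 3 without any 1 of the 4 NFKBIZ flox ones.

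The rest of the pathway was read from lists chosen by function. Of 21 interferon genes none was abundant enough to test: Ifnb1 had 4 counts over the 32 libraries, in 2 of them, and the most counted, Ifnz, had 112. After Cre in LDHA flox chondrocytes without IL-1β, 0 of 9 receptor and kinase genes were called (3 at an unadjusted p under 0.05), nor any of 9 feedback inhibitors tested (also 3). Of 8 transcription factors outside the members 1 rose: Irf1, which drives the interferon-γ programme, from 14.0 and 14.8 to 21.3 and 23.0 CPM (0.61, SE 0.10, adjusted p = 0.00685). Of 13 sensors and adaptors tested 2 rose, where 3.36% of all genes tested rose in this comparison. Of 17 interferon-induced GTPases listed 6 were tested and 4 rose. So did 13 of 34 other interferon-stimulated genes tested of 46 listed (median 0.814), with 0 lower in each of these lists. The interferon-stimulated genes outside the set that were called were thus all higher after Cre. Any of them under 1 CPM in each GFP library had to be higher with Cre or IL-1β to be tested.

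With IL-1β in GFP cultures over the 3 lines, 7 of 8 receptor and kinase genes tested rose (27.9% of all genes rose), Ifnar1 by 0.53 (SE 0.04, adjusted p = 1.28e-08) and Ifnar2 by 0.65 (SE 0.06, adjusted p = 8.41e-08). Tmem173 (STING), the adaptor of DNA sensing, rose by 1.17 (SE 0.13, adjusted p = 8.19e-07), and Mb21d1 (cGAS), its sensor, by 0.51 (SE 0.17, adjusted p = 0.0146). Cxcl10, a chemokine induced by interferon and by NF-κB, rose by 3.25 (SE 0.20, adjusted p = 6.02e-10), in LDHA flox chondrocytes from 1.58 and 1.34 to 10.7 and 12.0 CPM. Socs3 and Socs1, feedback inhibitors of cytokine receptors, rose by 1.52 and 0.29. Irf1 rose by 0.73 (SE 0.08, adjusted p = 4.52e-07), whereas Irf3 (-0.04, adjusted p = 0.621) did not pass. Under IL-1β over the 3 lines, Irf3 (-0.86, SE 0.17, adjusted p = 0.00275) and Socs3 (-0.70, SE 0.10, adjusted p = 0.000541) were lower with Cre than with GFP. Irf1 (0.75, SE 0.07, adjusted p = 3.79e-05) and Socs1 (0.90, SE 0.21, adjusted p = 0.00784) were higher. Irf3 ranged from 28.9 to 36.2 CPM (median 33.7) with GFP and from 11.8 to 32.9 (median 14.4) with Cre. These ranges overlapped, as did those of Socs1, while those of Socs3 and Irf1 did not.

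Virus-free wild-type chondrocytes did not give a single level to set the infected cultures against. In the untreated pair all 35 members were higher in set 2 than in set 1, with a median ratio of 4.51 over the 34 with counts in set 1 (range 1.06 to 82.1). Isg15 had 0.631 CPM in set 1 and 6.88 in set 2, Ifit1 0.241 and 5.85, Oasl2 0.631 and 9.69, and Bst2 6.80 and 46.2. Stat2 had 13.7 and 32.2 CPM and Ifit2 6.25 and 8.34. The libraries labelled FX11 differed likewise, with 35 of 35 higher in set 2 (median ratio 6.45), those labelled IL-1β less (26 of 35, median 1.95), and those labelled IL-1β + FX11 not in a common direction (19 of 35, median 1.02). Of 12 macrophage and leukocyte markers, the sum was between 99.2 and 183 CPM in the 4 wild-type libraries of set 1, between 159 and 277 in the 4 of set 2, and between 15.2 and 65.8 in the 24 floxed libraries. Csf1r, the macrophage growth factor receptor, had 9.05 and 29.6 CPM in the untreated pair. Of 5 skeletal muscle markers, the sum was between 129 and 221 CPM in set 1 and between 22.0 and 43.5 in set 2. The part of these cells in the difference was not tested.

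**Figure D5:**
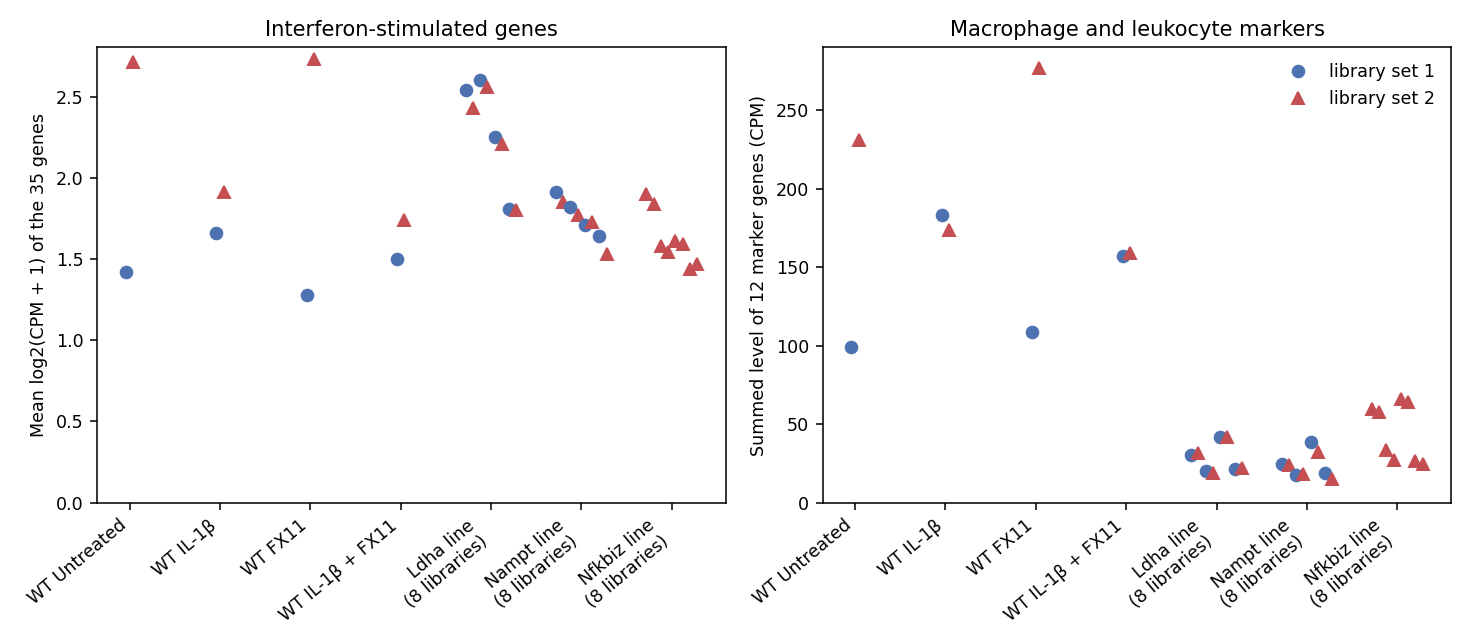
Left, the mean of log2(CPM + 1) over the 35 members in each library, and right, the summed CPM of the 12 macrophage and leukocyte markers, with 1 point per library (circles, set 1; triangles, set 2) for the 4 wild-type groups and the 3 floxed lines of 8 libraries each. The mean over the members is 1.42 in set 1 and 2.71 in set 2 for the untreated wild-type pair and 1.28 and 2.73 for the pair labelled FX11, and the markers are higher in the wild-type libraries than in any floxed one.

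Set against the untreated wild-type pair, the GFP cultures of the 3 lines had 0 of 32 members higher and 3 lower, where 4.24% of all genes were lower, with a median of -0.907. These were Oas2 (-2.97, SE 0.56, adjusted p = 0.0213), Gbp2 (-2.07, SE 0.45, adjusted p = 0.0345) and Trim30a (-3.30, SE 0.75, adjusted p = 0.0377), an interferon-induced ubiquitin ligase with near copies in the genome. All 3 exceeded 1 CPM only in the wild-type library of set 2 (2.82, 1.61 and 3.00 CPM). They entered the test through that library and could not come out higher. Isg15 did not pass (-1.09, SE 0.78, adjusted p = 0.414). The direction depended on the wild-type library. With set 1 alone 11 of 23 members were higher (median 0.617), where 22.4% of all genes were called in either direction, and with set 2 alone 8 of 32 were lower (median -1.945), where 3.71% were. Each of these fits has 1 wild-type library, which is assumed to vary like the virus cultures. Without the untreated library of set 1, 15 members were lower, and without that of set 2 a single member was called, higher, with a median of 0.639. Leaving out NAMPT flox GFP replicate 1 or either NFKBIZ flox GFP library left 1 member.

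The Cre cultures against the same pair had 0 of 33 members higher and 1 lower, where 5.32% of all genes were lower, and the median was -0.038. The member was Oas3 (-2.42, SE 0.38, adjusted p = 0.0118). It exceeded 1 CPM only in the wild-type library of set 2 (3.36 CPM), entered the test through it and could not come out higher. With set 1 alone 12 of 29 were higher (median 1.640; 29.2% of all genes called in either direction) and with set 2 alone 1 of 33 was lower (median -1.022; 1.68%), each again with 1 wild-type library, so here too the sign of the median followed the library. Without the untreated library of set 1, 2 members were called, and without that of set 2, 0. Virus and floxed line cannot be told apart in these comparisons. All NFKBIZ flox libraries are in set 2. With the set as a term, that line alone was set against only the wild-type library of set 2, and its calls are left out. The mean of log2(CPM + 1) over the members was 1.44 and 1.47 with GFP and 1.58 and 1.54 with Cre in this line. In the untreated wild-type libraries of sets 1 and 2 it was 1.42 and 2.71. With the LDHA flox line alone 0 of 32 with GFP and 0 of 33 with Cre were called by edgeR (4 and 3 at an unadjusted p under 0.05), where 0.0399% and 0.0657% of all genes were. In the NAMPT flox line alone 0 of 31 and 0 of 32 were called (4 and 2 at an unadjusted p under 0.05), where 0.305% and 0.564% of all genes were.

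In the wild-type libraries 0 members were called by edgeR between untreated and any of the labelled treatments, or between IL-1β + FX11 and IL-1β. The number at an unadjusted p under 0.05 was 1 for IL-1β + FX11 against untreated and 0 for the other 3 comparisons, and edgeR called 0 of all genes in each. DESeq2 and voom also called 0 members in the 4. Gbp2 shows how the labels bear on this: it had 0.812 and 1.61 CPM in the untreated libraries, 7.14 and 0.263 in those labelled IL-1β, 0.253 and 8.67 in those labelled FX11, and 5.80 and 3.90 in those labelled IL-1β + FX11. It was thus high in the set 1 library and low in the set 2 library labelled IL-1β, as Mmp3 was. Without the set 2 libraries labelled FX11 and IL-1β the count of called members stayed at 0, in fits where the lone library left is assumed to vary like the other groups, with 2 members at an unadjusted p under 0.05 for IL-1β, 2 for FX11 and 5 for IL-1β + FX11 against untreated.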

How the data were processed

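RNA was measured by RNA-seq after depletion of ribosomal RNA. Per the labels and the submitters' processing notes, the authors ran bcl2fastq, STAR 2.0.4b and featureCounts 1.45 (Subread) on GRCm38 and deposited raw read counts per gene, with CPM and RPKM columns that were not used here. Strand in counting was not stated. Symbols came from GENCODE M21 (40340 of 41388 identifiers), and 353 ribosomal RNA genes were left out. The members and the gene lists were chosen with earlier results of these data known.

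Counts were fitted with edgeR 4.0.16 (quasi-likelihood, TMM) in R 4.3.3, with genes over 1 CPM in at least the smaller group size minus 1 libraries and Benjamini-Hochberg adjustment over all genes tested, called at 0.05. Fits over 3 lines had line and library set as terms, fits within a line had its 8 libraries, and Cre effects between lines came from 24 libraries. The fit was tested on simulated data. Alternatives were DESeq2 1.42.0, limma 3.58.1 voom with quality weights, RLE factors, other filters, the set as block, set 2 alone and leaving out libraries. Set 1 alone against wild type, and wild type without its set 2 libraries labelled FX11 and IL-1β, were added after seeing the data. NFKBIZ flox replicate numbers are arbitrary. The numbers pair the libraries in the LDHA flox line (deviations from group means correlated at r = 0.24 to 0.43) and the NAMPT flox line (0.22 to 0.31). No 2 replicates agreed within sampling noise (chi-square per degree of freedom 6.98 or more in 16 groups). Counting error alone bounds low members.

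All 35 members could be named. Values of every library were given for 10 members (Isg15, Ifit1, Ifit3, Rsad2, Irf7, Stat2, Oasl2, Gbp2, Bst2, Zbp1) and for those with the smallest adjusted p in each direction (3 in fits over several lines, 2 within a line), with others added after their values were seen. A gene of the pathway lists is not reported here.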

Additional observations from a re-analysis of the deposited data

Results flagged for a closer look

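Effects that differed between groups by a test of the difference itself were looked at again, as log2 differences from edgeR's quasi-likelihood test. With 2 libraries per group, no group was large enough to test single libraries as outliers. In the LDHA flox line the IL-1β response with Cre minus that with GFP was -1.90 for Ifit1, -2.50 for Ifit3, -1.78 for Ifi44, -1.20 for Ifi27 and -2.12 for Cmpk2. In the NAMPT flox line it was 0.67 for Bst2 and -0.99 for Ifi27. The Cre effect without IL-1β in the LDHA flox line minus that in the NAMPT flox line was 2.41 for Ifi44 and 0.66 for Ifi27. In the NFKBIZ flox line minus the LDHA flox line it was -2.89 for Oasl2, -0.96 for Irf9, -0.59 for Stat2, -1.40 for Bst2 and -1.80 for Xaf1. Oasl2 had 0 counts in an NFKBIZ flox Cre library, so its value depends on the prior count of the fit.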

How the results depend on the processing

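Counts of called members moved by over 1.5 times as follows, and the cause was not tested unless fewer genes or libraries entered. GFP cultures against virus-free wild type called 3, with DESeq2 6, voom 1, no filter 6, set 1 only 11, set 2 only 8, and the LDHA flox, NAMPT flox or NFKBIZ flox line alone 0, 0 and 28. Cre cultures against wild type called 1, with DESeq2 2 and the LDHA flox or NAMPT flox line alone 0. For both, set 1 only, set 2 only and the NFKBIZ flox line alone leave 1 wild-type library to compare with, so their counts are not listed here. Cre against GFP over 3 lines called 14, with no filter 22 and set 2 only 0, and under IL-1β 15, with set 2 only 6. IL-1β in Cre cultures called 12, with set 2 only 7. In the NFKBIZ flox line IL-1β with GFP called 3, with voom 6 and no filter 5. In the LDHA flox line the interaction called 5, with no filter 9 and the library set as replicate block 11. In the NAMPT flox line Cre called 3, with no filter 6 and the block 8, Cre under IL-1β 11, with DESeq2 6, and the interaction 2, with the block 4. The block moved no other count in these lines by over 1.5 times, and in wild type, where numbers do not pair the libraries (r = -0.09 to 0.72), it left 0 calls. The Cre effect differed between the LDHA flox and NAMPT flox lines for 2 members, with no filter 4, no library set term 0 and set 2 only 0, between NFKBIZ flox and LDHA flox for 5, with no filter 8, no set term 3 and set 2 only 0, and between NFKBIZ flox and NAMPT flox for 0, with DESeq2, voom or no filter 1.

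Leaving out 1 library at a time gave 1 to 15 called members for GFP against wild type, 0 to 2 for Cre against wild type, 6 to 15 for Cre over 3 lines (13 to 15 under IL-1β), and 9 to 12 and 9 to 11 for IL-1β with GFP and Cre. In the LDHA flox line it gave 8 to 12 for IL-1β, 9 to 18 for Cre, 5 to 15 for Cre under IL-1β and 4 to 6 for the interaction. In the NAMPT flox line these were 3 to 9, 1 to 3, 4 to 11 and 1 to 2, and in the NFKBIZ flox line 2 to 4, 0, 0 to 5 and 0. In wild type they were 0. For the differences between lines they were 0 to 3 (LDHA flox and NAMPT flox), 2 to 6 (NFKBIZ flox and LDHA flox; 2 without LDHA flox GFP replicate 1 or Cre replicate 2 or NFKBIZ flox GFP replicate 2, and 3 without LDHA flox Cre replicate 1, GFP replicate 2 or NFKBIZ flox Cre replicate 2) and 0 to 2 (NFKBIZ flox and NAMPT flox; 2 without NFKBIZ flox Cre replicate 1). Of 627 recalculations of single called members under the other settings, 570 kept direction and side of the threshold, 57 lost the call and 0 changed direction. Leaving out 1 library at a time is counted apart: 798 of 948 such fits of single members kept the call, and 0 changed direction. Members near 1 CPM rest on few reads.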
